A study of Mus musculus with 4 samples.

Results

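The voltage-gated calcium and sodium channels of the mouse hippocampus are described here through 38 of the 40 genes whose symbol begins with Cacna, Cacnb, Cacng or Scn followed by a digit, of 31060 genes in the count table. Grouped by gene symbol, the 38 comprised 10 calcium channel pore genes, 16 of calcium channel auxiliary subunits, 9 sodium channel pore genes and 3 of sodium channel beta subunits. Whether each encoded protein is gated by voltage was not examined. The study sequenced total hippocampal RNA of wild-type C57BL/6 mice, 12 months old in the sample labels. The 2 control libraries came from naive mice with no anesthesia and no surgery. The 2 surgery libraries came from mice taken on day 3 after an exploratory laparotomy under sevoflurane. By the study's methods, surgery mice also had ropivacaine injected along the incision. Sevoflurane, incision and ropivacaine cannot be told apart. All mice, controls included, were killed with an overdose of sevoflurane according to the study's methods. Gene counts per library ranged from 18002695 to 19318085. The labels do not state whether each library was a separate animal, so the p-values measure only the spread between these libraries, which may be technical. Among all libraries, control replicate 1 stood apart in choroid plexus markers, whose 5 genes summed to 50.5 CPM (counts scaled to library size with TMM factors) there against 3447, 3583 and 4485 in the others. Oligodendrocyte markers summed to 4798, 4978 and 4832 CPM in the controls and surgery replicate 1 and to 3420 in surgery replicate 2. The relation of gene level to GC content also differed between libraries, with control replicate 2 and surgery replicate 1 at either end, and values without single libraries are given where they bear on a result.

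Voltage-gated channels open when the membrane depolarizes. Sodium channels carry the upstroke of the action potential, and calcium channels turn depolarization into calcium entry for transmitter release, dendritic signals and gene regulation. Each pore is a single large protein, and smaller auxiliary subunits move it to the membrane and set its gating. Most genes of the Cacng family are named after a calcium channel subunit of muscle but encode transmembrane AMPA receptor regulatory proteins (TARPs), which escort glutamate receptors to the synapse.

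No channel gene differed between surgery and control after adjustment over all genes. Of the 38 genes, 32 passed the count filter, and edgeR's quasi-likelihood test gave none of them an adjusted p under 0.05, with 0.0% of all 17236 tested genes called. At an unadjusted p under 0.05, 1 channel gene lay higher after surgery (3.12% of 32, against 4.33% of all genes) and 2 lay lower (6.25%, against 5.63%). These were Scn3a, higher, and Cacng8 and Cacnb1, lower. DESeq2 gave 1 of 28 channel genes with an adjusted value, Cacng8, an adjusted p under 0.05, beside 0.743% of all 9550 genes with such a value. A p that missed the threshold does not show that a gene did not differ, since standard errors on the log2 scale ran from 0.11 to 0.49.

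Calcium channel auxiliary subunits, the class with the most tested genes, held the widest range of fold changes. The median over the 8 tested calcium pores was -0.081 on the log2 scale, with 2 above 0 and 6 below and values from -0.28 to 0.10. The 15 tested calcium auxiliary subunits had a median of -0.070, with values from -0.70 to 0.26. The low end was the TARP gene Cacng8. The Cacnb genes among them ran from -0.39 to 0.078 and the Cacna2d genes from -0.29 to 0.26. The 6 tested sodium pores had a median of 0.076, with 5 above 0 and 1 below and values from -0.074 to 0.32, and the 3 sodium beta subunits a median of -0.14, with 1 above and 2 below. Over the 32 genes the median was -0.063, and over all genes tested 0.00053. Leaving out a library in turn moved the median from -0.19 to 0.049 for the calcium pores, from -0.11 to -0.028 for the calcium auxiliary subunits, from -0.10 to 0.32 for the sodium pores and from -0.17 to -0.029 for the sodium beta subunits. The calcium pore median lay above 0 without control replicate 1 (0.049) and without surgery replicate 1 (0.012), and the sodium pore median lay below 0 without control replicate 2 (-0.10). With an offset for the GC content of the transcripts, both pore medians turned, to 0.022 for the calcium pores and -0.054 for the sodium pores. In bulk tissue, fewer cells of a type and less RNA per cell cannot be told apart.

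Whether the groups overlapped was also counted, without a test. In CPM, both surgery libraries lay above both controls for 2 channel genes (6.25%, against 20.3% of all genes). Both lay below for 8 (25%, against 22.3%), and 22 overlapped. The 8 were Cacng8, Cacng6, Cacnb1, Cacna2d2, Cacna1h, Cacng7, Cacna1i and Scn2b, and the 2 were Scn3b and Scn3a.

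**Figure D1:**
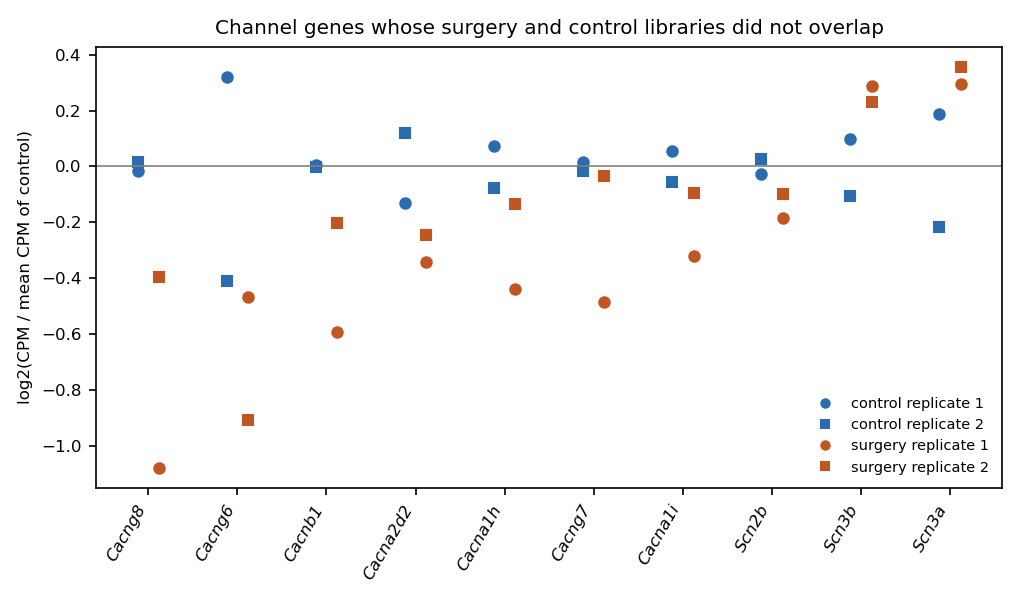
Channel genes whose surgery and control libraries did not overlap, with each library as a point on the scale of log2 of CPM over the control mean. Cacng8 and Cacnb1 had closely matched controls, and surgery replicate 1 was the lower of the surgery libraries for 7 of the 8 genes below control, Cacng6 being the exception.

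The levels set the scale of these differences. In FPKM, which divides counts by length and by library total and so allows genes to be compared, the highest mean levels described were those of Scn2b, Cacng7, Cacng8 and Scn3b, at 61.9, 56.4, 51.8 and 48.9, and each overlapped its neighbour in this order. Of the 37 pairs of neighbours in the order, 29 overlapped. In all, 29 genes had a mean FPKM of at least 1 and 18 of at least 10.

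**Figure D2:**
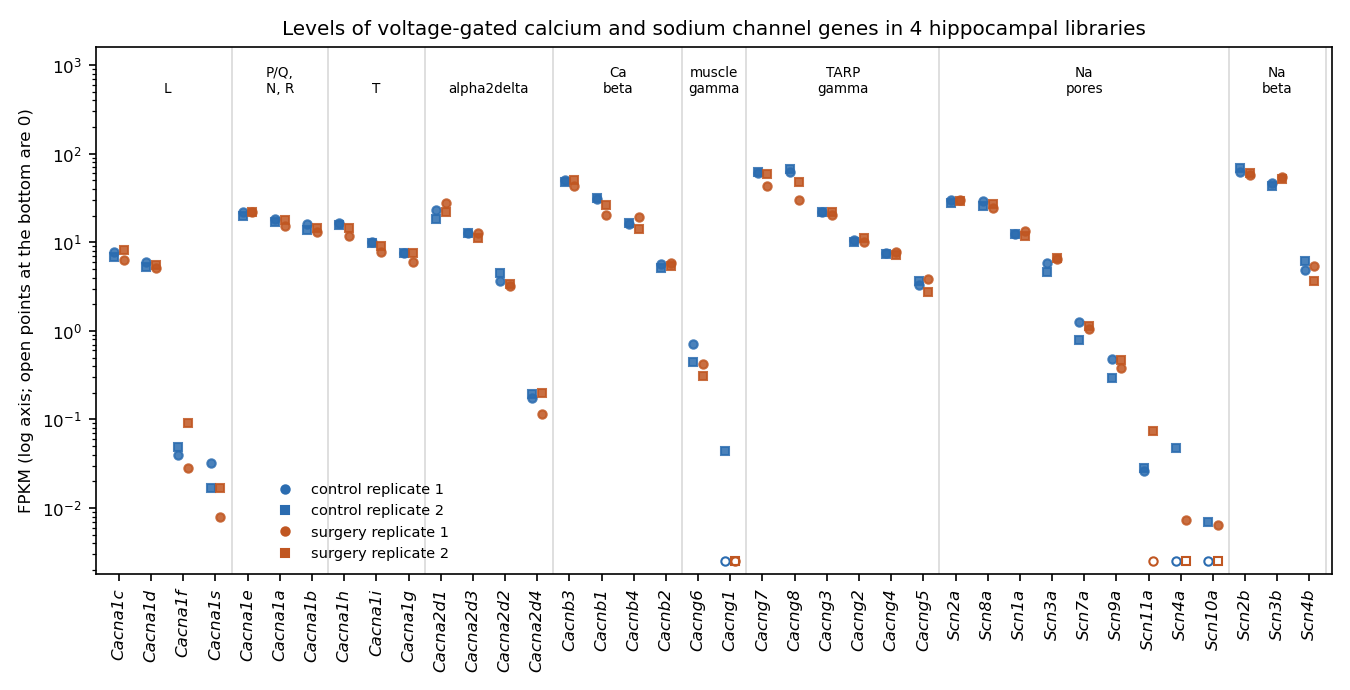
FPKM of 38 channel genes in each library on a log axis, grouped by role, with open points at the bottom for a value of 0. The auxiliary genes Scn2b, Cacng7, Cacng8, Scn3b and Cacnb3 had higher means than every pore gene, of which Scn2a was the highest at a mean of 29.4.

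Among the TARPs, Cacng8 had the largest difference of the tested family. It encodes a TARP that is abundant in hippocampal pyramidal neurons, where it holds AMPA receptors at synapses. Its CPM was 149 and 152 in the controls and 71.2 and 114 in surgery (150 ± 2.16 against 92.8 ± 30.5, SD, n = 2 each). The controls lay close together, both surgery libraries lay below them, and surgery replicate 1 was the lowest. The log2 fold change was -0.70 (SE 0.18), with an unadjusted p of 0.00306 and an adjusted p of 0.364 in edgeR's quasi-likelihood test and an adjusted p of 0.0360 in DESeq2. Without surgery replicate 1 it was -0.39, and without surgery replicate 2 it was -1.07. Over all alternatives its fold change stayed below 0. With every library kept, its edgeR adjusted p ranged from 1.39e-05 with no count filter to 0.855 with summed transcripts. The share of all genes called with no count filter was 1.33%. Its share of the summed FPKM of the 6 TARPs was 37.4% and 38.7% in the controls and 26.2% and 32.1% in surgery.

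Cacng8 (ENSMUSG00000053395) lies on chromosome 7 (GRCm38, 3390683 to 3415648, plus strand), with Cacng7 upstream (3332955 to 3368221) and Cacng6 downstream (3424195 to 3435667). Cacng7 encodes a TARP of the second type, which modulates AMPA receptor gating, and was the family's highest TARP by mean FPKM. Its CPM was 151 and 148 in the controls and 107 and 146 in surgery, for a log2 fold change of -0.24 (SE 0.15). Only surgery replicate 1 stood well below: without it the value was -0.028, and without surgery replicate 2 it was -0.48. Cacng6, a gamma subunit known from muscle, was close to the count filter, with 27 and 16 counts in the controls and 16 and 11 in surgery. Its log2 fold change was -0.66 (SE 0.49).

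The promoters of the neighbours Cacng7 and Cacng8 and of Cacnb1, the other calcium channel gene past an unadjusted p of 0.05 in edgeR's test, are shown as examples. They are among the 8 channel genes that lay below control in both surgery libraries, and windows of the others are not printed. Each is a RefSeq window (GRCm38.p6) from 250 bases before to 50 after a start, 5′ to 3′ on the gene's strand, with the GC box GGGCGG or its reverse complement in capitals.
Cacng7, chr7:3332575-3332874, plus strand: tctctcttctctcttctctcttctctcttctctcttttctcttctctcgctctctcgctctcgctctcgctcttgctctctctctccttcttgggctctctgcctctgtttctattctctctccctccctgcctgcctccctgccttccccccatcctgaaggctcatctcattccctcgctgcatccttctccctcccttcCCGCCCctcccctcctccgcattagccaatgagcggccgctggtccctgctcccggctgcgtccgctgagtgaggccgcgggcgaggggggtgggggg
Cacng8, chr7:3393792-3394091, plus strand: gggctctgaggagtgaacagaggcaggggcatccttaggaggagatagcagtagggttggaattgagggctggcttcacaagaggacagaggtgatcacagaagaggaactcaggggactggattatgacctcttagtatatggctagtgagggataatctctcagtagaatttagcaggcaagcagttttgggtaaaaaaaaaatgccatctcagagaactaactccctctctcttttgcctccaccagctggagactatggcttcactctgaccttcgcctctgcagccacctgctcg
Cacnb1, chr11:98022578-98022877, minus strand: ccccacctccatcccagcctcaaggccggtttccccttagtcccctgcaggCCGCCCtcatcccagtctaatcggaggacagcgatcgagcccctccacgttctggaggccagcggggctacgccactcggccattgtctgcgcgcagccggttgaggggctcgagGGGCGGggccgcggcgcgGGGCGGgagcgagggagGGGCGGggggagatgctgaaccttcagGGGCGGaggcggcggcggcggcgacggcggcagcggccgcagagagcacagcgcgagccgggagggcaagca
The Cacng7 window was 62.0% GC with 1 GC box and 15 CpG, and the Cacnb1 window was 73.7% GC with 5 GC boxes and 34 CpG. The Cacng8 window was 50% GC with no GC box and 2 CpG, and it lies inside the gene as the annotation places it, downstream of its annotated start. A further Cacnb1 window at 98018323 to 98018622 had no GC box. The table held 41 windows for 30 of the 38 genes, and 16 of them (39.0%) had a GC box on either strand, against 35.7% of all 32851 windows. The E-box CACGTG was in 0 of 41 against 7.15% of all windows, and TATAAA on either strand in 2 (4.88%) against 13.6%. A match is a run of letters and not a known site, and no match says only that the letters are absent from these windows.

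The other 4 TARPs stayed within the spread of the libraries. Cacng2 (stargazin, the founding TARP of AMPA receptor trafficking) had a log2 fold change of 0.031 (SE 0.12), Cacng3 -0.051 (SE 0.12), Cacng4 0.018 (SE 0.14) and Cacng5 -0.070 (SE 0.20). All 4 had overlapping groups. Summed over the 6 TARPs, FPKM was 167 and 172 in the controls and 115 and 150 in surgery.

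Markers of hippocampal cell layers were measured beside these genes. The 4 CA pyramidal markers summed to 498 and 455 CPM in the controls and 394 and 424 in surgery, with 4 of 4 fold changes below 0 and 1 of them at an unadjusted p under 0.05. The 4 dentate granule markers summed to 366 and 330 in the controls and 408 and 406 in surgery, with 3 of 4 above 0 and 2 at an unadjusted p under 0.05. The 4 markers of excitatory neurons as a whole overlapped, at 5134 to 6129 and 4872 to 5754. No marker in these lists was at 0 in every library, none had an adjusted p under 0.05 in edgeR's test, and their part in the Cacng8 values was not tested.

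The calcium channel beta subunits bind the pore inside the cell and bring it to the membrane. Cacnb1 (ENSMUSG00000020882), on chromosome 11 from 98001508 to 98023034 on the minus strand, had CPM values of 141 and 140 in the controls and 93.1 and 122 in surgery (140 ± 0.505 against 107 ± 20.3, SD, n = 2 each). The controls were nearly equal and both surgery libraries lay below. The log2 fold change was -0.39 (SE 0.14), with an unadjusted p of 0.0171 and an adjusted p of 0.426 in edgeR's quasi-likelihood test. Without surgery replicate 1 it was -0.20, and without surgery replicate 2 it was -0.59. With an offset for GC content it was -0.16 (unadjusted p = 0.128 in edgeR's test). Cacnb1 supplied 29.7% and 31.4% of the summed beta subunit FPKM in the controls and 23.1% and 27.5% in surgery.

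Cacnb3, the most abundant beta subunit, had CPM values of 206 and 186 in the controls and 174 and 205 in surgery, and these overlapped. Its log2 fold change was -0.050 (SE 0.13). Cacnb2 and Cacnb4 lay at 0.078 (SE 0.12) and 0.048 (SE 0.14), with overlapping groups. Cacnb4, whose loss in mice causes the lethargic phenotype of ataxia and absence seizures, ranged from 129 to 171 CPM in surgery around controls of 144 and 147.

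The alpha2delta subunits sit outside the membrane and raise channel density at release sites, and Cacna2d1 and Cacna2d2 encode the binding sites of gabapentin. Cacna2d1 had the highest level of the 4, with CPM values of 293 and 224 in the controls and 347 and 273 in surgery. Its groups overlapped, and the replicates within each group differed by more than the shift between groups, for a log2 fold change of 0.26 (SE 0.16). Cacna2d2 lay lower in both surgery libraries, at 25.3 and 27.1 CPM against 29.3 and 34.9, with a log2 fold change of -0.29 (SE 0.14, edgeR unadjusted p = 0.0658). Cacna2d3 was at -0.080 (SE 0.11), and the scarce Cacna2d4, 21 to 34 counts a library, at -0.23 (SE 0.40).

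The T-type calcium pores open at small depolarizations and support burst firing. All 3 had fold changes below 0: Cacna1h -0.28 (SE 0.13, edgeR unadjusted p = 0.0568), Cacna1i -0.20 (SE 0.12) and Cacna1g -0.16 (SE 0.13). Cacna1h, the highest T-type gene, had CPM values of 164 and 148 in the controls and 115 and 142 in surgery. Surgery replicate 1 was the lowest library for all 3 genes. Cacna1g is strongly expressed in thalamus, and the 4 thalamic markers summed to 74.4 and 90.6 CPM in the controls and 87.8 and 79.6 in surgery, so the groups overlapped there.

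The P/Q-, N- and R-type pores drive transmitter release and dendritic calcium entry. Cacna1e, the R-type pore, was the highest calcium pore gene, with CPM values of 560 and 483 in the controls and 556 and 564 in surgery. Its log2 fold change was 0.10 (SE 0.14) and control replicate 2 was the low library. It supplied 20.9% and 20.7% of the summed calcium pore FPKM in the controls and 25.1% and 22.2% in surgery. Cacna1a, the P/Q-type pore, and Cacna1b, the N-type pore, were at -0.061 (SE 0.13) and -0.097 (SE 0.13), with overlapping groups.

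Of the L-type pores, which couple depolarization to gene transcription in neurons, Cacna1c and Cacna1d were the ones well detected. Cacna1c had CPM values of 167 and 140 in the controls and 135 and 177 in surgery, and both extremes came from the surgery group. Its log2 fold change was 0.021 (SE 0.15), and that of Cacna1d was -0.065 (SE 0.13). Cacna1f, the L-type pore of retina, had 5 to 15 counts, and Cacna1s, that of skeletal muscle, had 1 to 4. Both fell under the count filter.

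The main sodium pores of the brain carry the axonal spike. Scn2a, the main pore of excitatory axons, had CPM values of 389 and 347 in the controls and 386 and 378 in surgery, and supplied 37.9% to 39.9% of the summed FPKM of the 9 sodium pores described. Its log2 fold change was 0.052 (SE 0.13). Scn8a, which sets the threshold at the axon initial segment, was at -0.074 (SE 0.14). Scn1a, the pore that fast-spiking interneurons depend on and the gene of Dravet syndrome, was at 0.025 (SE 0.11), and the 6 interneuron markers summed to 891 and 778 CPM in the controls and 906 and 851 in surgery.

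Scn3a (ENSMUSG00000057182), a sodium pore most abundant in the embryonic brain, was the 1 channel gene with a higher level past an unadjusted p of 0.05. Its CPM was 74.6 and 56.3 in the controls and 80.2 and 83.8 in surgery (65.5 ± 12.9 against 82.0 ± 2.50, SD, n = 2 each). Both surgery libraries lay above both controls, but the controls differed from each other by more than control replicate 1 differed from surgery. The log2 fold change was 0.32 (SE 0.14), with an unadjusted p of 0.0414 and an adjusted p of 0.483 in edgeR's quasi-likelihood test. Without control replicate 2 it was 0.14. Scn3a, Scn2a, Scn1a, Scn9a and Scn7a lie together on chromosome 2 between 65457118 and 66784914, and all 5 had fold changes above 0, Scn9a at 0.13 (SE 0.29) and Scn7a at 0.0997 (SE 0.25). All 5 were under 45% GC, and with an offset for GC content Scn1a, Scn2a and Scn7a lay below 0, at -0.094, -0.061 and -0.054.

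Several sodium pores of other tissues were at or near the detection limit. Scn4a of skeletal muscle and the sensory neuron pores Scn10a and Scn11a had 0 to 8 counts a library. Cacng1, the muscle gamma subunit, had 1 count in control replicate 2 and 0 elsewhere. A count of 0 allows up to 3 counts in a library, 0.156 to 0.167 CPM, which covers counting error only. The 4 skeletal muscle markers summed to 5.68 to 7.59 CPM.

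The sodium channel beta subunits tune pore gating and act as adhesion molecules. Scn2b had CPM values of 297 and 308 in the controls and 266 and 283 in surgery (302 ± 8.43 against 274 ± 11.8, SD, n = 2 each), for a log2 fold change of -0.14 (SE 0.12). Both surgery libraries lay below both controls. Scn3b, on chromosome 9 from 40269217 to 40291618 on the plus strand, lay above 0. Its CPM was 261 and 227 in the controls and 298 and 287 in surgery, for a log2 fold change of 0.26 (SE 0.12, edgeR unadjusted p = 0.0601), and its FPKM was 47.0 and 42.7 in the controls and 54.3 and 51.9 in surgery. Both surgery libraries lay above both controls. Scn4b, which like Scn2b links to the pore by a disulfide bond, was at -0.27 (SE 0.19). Scn4b is strongly expressed in striatum, and the 6 striatal markers summed to 53.6 and 90.3 CPM in the controls and 54.2 and 71.1 in surgery. Scn4b itself was at 24.4 and 30.1 CPM in the controls and 26.7 and 18.6 in surgery.

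**Figure D3:**
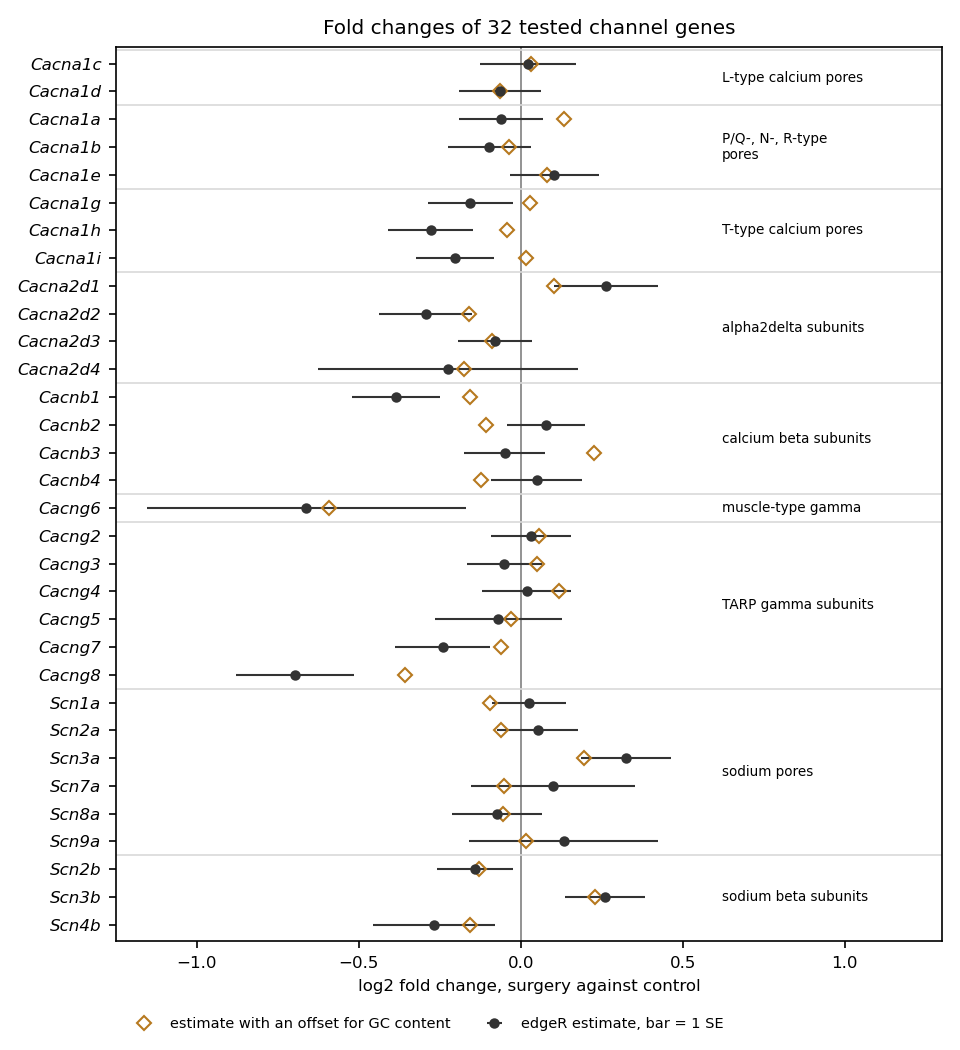
Log2 fold changes of 32 tested channel genes by role, with bars of 1 SE from edgeR and open diamonds for the estimate with an offset for GC content. Cacng8 at -0.70 and Scn3a at 0.32 were the extremes of those plotted, and the offset brought them to -0.36 and 0.19.

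The fold changes of the family varied with the GC content of the transcripts. Across the 32 genes, the log2 fold change and the GC content of the longest transcript had a Spearman coefficient of -0.78, and across 10856 genes with a log2 CPM above 3 it was -0.60, as descriptions over genes of the same 4 libraries. All 8 channel genes under 45% GC had values above 0, with a median of 0.089, and 0 of 9 at 55% or more did, with a median of -0.24. The medians of all tested genes in these ranges were 0.14 and -0.19. The median GC content was 51.5% for the channel genes and 49.4% for all tested genes. Between libraries, the coefficient of relative level with GC over the channel genes was 0.34 and 0.70 in the controls and -0.74 and -0.085 in surgery, so control replicate 2 and surgery replicate 1 were the libraries at either end.

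**Figure D4:**
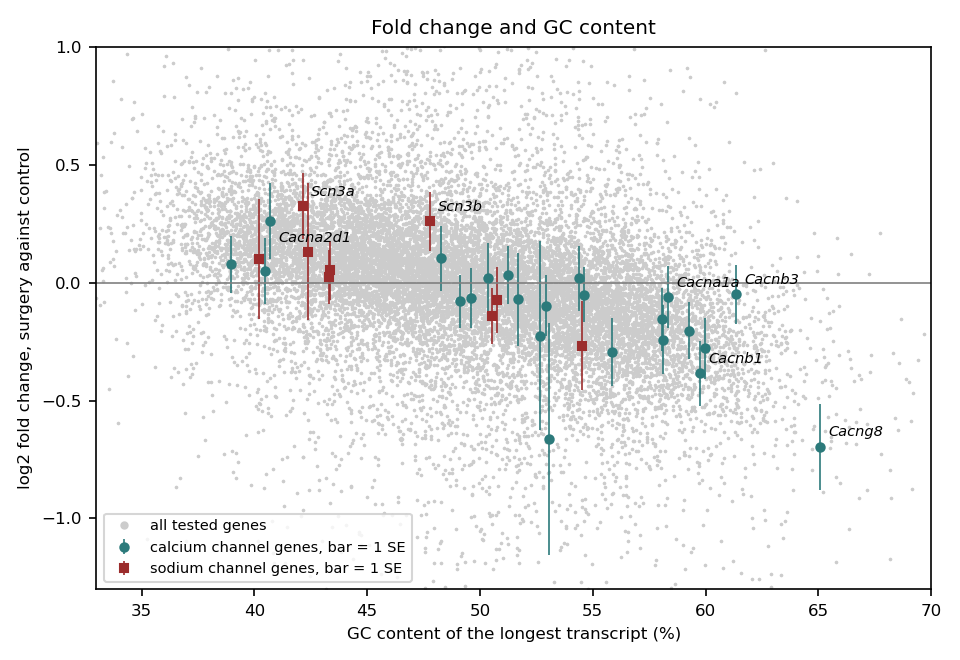
Log2 fold change (y axis) by GC content in % (x axis, from the longest transcript) for tested genes, with calcium and sodium channel genes marked and bars of 1 SE, and 286 of the tested genes outside the plotted ranges. GC-poor genes such as Scn3a and Cacna2d1 lay above 0 and GC-rich genes such as Cacnb1 and Cacng8 lay below.

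With a GC offset fitted to each library, the family coefficient was -0.069 and 20 of the 32 genes lay closer to 0. The offset was fitted to the GC trend of these same libraries, so a small coefficient after it was built in. The offset also takes out any group difference that follows GC content. Cacng8 remained the largest below 0 among genes at 1 FPKM or more, at -0.36 (unadjusted p = 0.0197 in edgeR's test). Cacnb1 moved to -0.16 and Scn3a to 0.19. The T-type median moved from -0.20 to 0.016, the median of the P/Q-, N- and R-type pores from -0.061 to 0.081 and the TARP median from -0.060 to 0.010. At an unadjusted p under 0.05, 2 channel genes then lay higher (6.25%, against 3.42% of all genes), Scn3b at 0.23 and Cacnb3 at 0.22, and 1 lay lower (3.12%, against 3.84%), Cacng8. Whether GC-linked differences between libraries were technical was not tested.

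Of a list of 34 partners of these channels, 32 were matched by symbol and tested. At an unadjusted p under 0.05 in edgeR's test, 1 lay higher and 3 lower, beside 4.33% and 5.63% of all genes, none passed adjustment, and the median log2 fold change was 0.018. Cabp1, a calcium-binding modulator of calcium channels, was at 83.0 and 90.02 CPM in the controls and 51.2 and 67.7 in surgery, which differed by -0.54 on the log2 scale (SE 0.14, edgeR adjusted p = 0.353). Stac2, an adaptor of L-type channels, was at -0.39 (SE 0.12), and Cnih3, an AMPA receptor auxiliary protein, was at -0.36 (SE 0.12). Cachd1, an alpha2delta-like protein, lay higher in both surgery libraries, at 0.36 (SE 0.12).

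The transcript table resolved the subunits into isoforms with less precision. It held 221 transcripts of the genes described, of which 125 from 35 genes were tested, with a median standard error of 0.77 on the log2 scale against 0.14 for the genes. In 73 of them (58.4%, against 55.1% of all transcripts) replicates of a group differed by over 2-fold, against 0 of 32 genes (8.7% of all genes). By edgeR 0 passed adjustment, as did 0.0% of all 65665 transcripts, and at an unadjusted p under 0.05, 7 lay higher (5.6%, against 2.69%) and 3 lower (2.4%, against 3.3%). Both surgery libraries lay above both controls for 20 transcripts (16%, against 18.1% of all) and below for 25 (20%, against 19.3%). DESeq2 gave 5 an adjusted p under 0.05, beside 3.95% of all transcripts. These were Cacng7-201 and Scn3b-207, lower, and Cacna1i-202, Cacna1g-206 and Cacna1s-204, higher.

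Cacng7-201 was the main Cacng7 isoform, with 8801 and 7444 estimated counts in the controls and 3554 and 3327 in surgery. The groups were well apart, for a log2 fold change of -1.21 (SE 0.18, edgeR unadjusted p = 0.00422, adjusted p = 0.412, DESeq2 adjusted p = 0.0167). The gene count of Cacng7 moved less, at -0.24. The ratio of its summed transcript counts to its gene count was 3.10 and 2.73 in the controls and 1.75 and 1.29 in surgery, while the ratio of the table totals was 3.85 to 3.91. Its listed transcripts thus held fewer counts for each gene count in surgery. The table holds 15398 assembled models with no gene symbol, and whether they took these reads was not tested. Of the other called transcripts, Cacna1i-202 had 10 and 9 counts in the controls and 129 and 141 in surgery, while the gene count of Cacna1i lay at -0.20. Its listed transcripts summed to 0.0401 and 0.0308 of the gene count in the controls and 0.141 and 0.130 in surgery, so this value rests on a small part of the reads. The remaining 3 had at most 69 counts in any library.

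The leading transcript of Scn3b differed between the groups. Scn3b-202 had 1872 and 334 counts in the controls and 14160 and 8782 in surgery, for a log2 fold change of 3.41 (SE 1.02, edgeR unadjusted p = 0.0352, adjusted p = 0.735). It made up 23.1% and 12.6% of the gene's transcript counts in the controls and 74.8% and 66.7% in surgery, and Scn3b-203 made up 70.9% and 72.9% in the controls and 22.5% and 29.3% in surgery. The summed transcripts were 1.65 and 0.631 times the gene count in the controls and 3.30 and 2.56 times in surgery, so these shares rest on an unequal part of the reads.

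Isoform shares of other subunits varied between libraries to unequal extents. Cacnb4-201 made up 70.4% and 67.8% of the gene in the controls, 23.5% in surgery replicate 1 and 50.9% in surgery replicate 2, at a log2 fold change of -0.94 (SE 0.32, edgeR unadjusted p = 0.0512). Cacnb3-206 made up 43.2% and 73.0% in the controls and 87.1% and 80.9% in surgery, at a log2 fold change of 0.57 (SE 0.29), and Cacnb3-202 was at -1.38 (SE 0.57). Cacng8-201, which made up 95.0% to 97.6% of the gene in every library, had 11198 and 9880 counts in the controls and 4557 and 7339 in surgery, a log2 fold change of -0.79 (SE 0.32), close to that of the gene. Cacna2d2-202 was listed at 0 in control replicate 2 and at 1092 to 1340 in the other libraries, while Cacna2d2-201 had 1423 counts in control replicate 2 and 154 to 261 in the others. The scarce Scn8a-204 had 490 and 144 counts in the controls and 0 and 21 in surgery (edgeR unadjusted p = 0.114), while the main isoform Scn8a-205 overlapped between the groups.

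**Figure D5:**
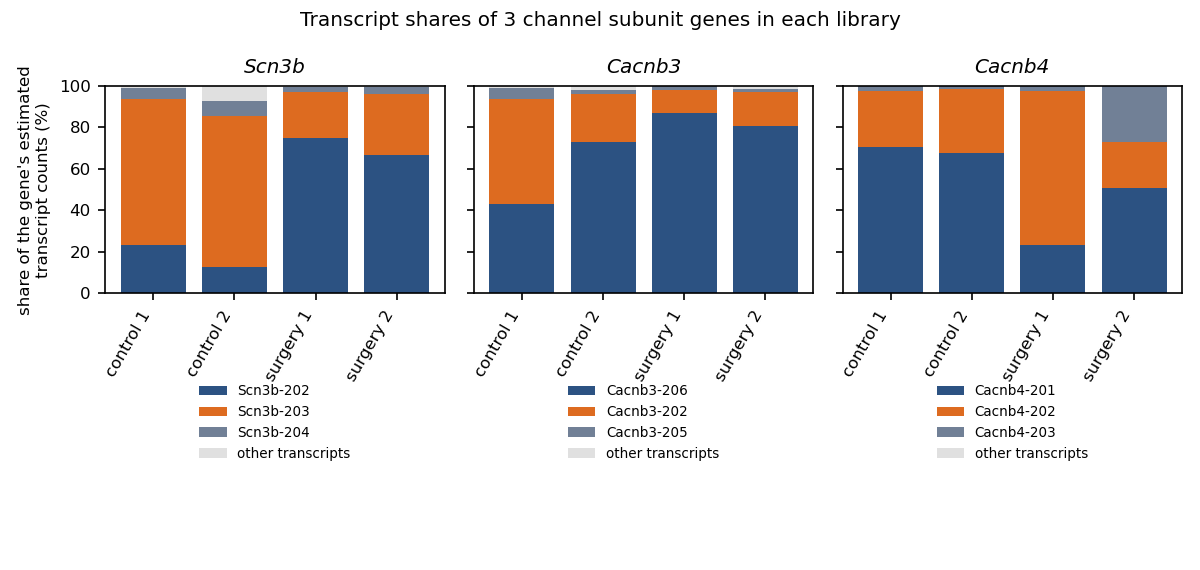
Share of a gene's estimated transcript counts (%) held by its leading transcripts in each library, for 3 auxiliary subunit genes. The Scn3b bars differ between the groups, while the Cacnb4 bars differ most in surgery replicate 1.

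The transcript counts were not usable for most pores. Of the 32 tested genes, 17 had a ratio of summed transcripts to gene counts between 2 and 6 in all libraries, and 13 had one under 1 in at least 1 library, among them all 8 tested calcium pores. For Scn2a it was 0.038 and 3.57 in the controls and 0.74 and 0.047 in surgery, although its gene counts were steady. Exons of 11 of the 38 genes overlap those of another annotated gene, mostly on the opposite strand, such as Cacnb1 with Gm11629 over 80 bases and Cacna1h with Tpsg1 over 158. Cacng8 shares 91 bases on its own strand with the miRNA gene Gm23450. Whether counting used strand is not given in the sources used here, so these reads cannot be told apart.

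Without control replicate 1, the log2 fold change was -0.71 for Cacng8, -0.38 for Cacnb1 and 0.54 for Scn3a.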

How the data were processed

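Total hippocampal RNA was sequenced on an Illumina HiSeq in 2 control and 2 surgery libraries. The authors aligned reads with HISAT2 to mm10 and deposited raw counts per gene from HTSeq (version 5.4.2 in the submitters' notes). They also deposited FPKM values for genes and transcripts and estimated counts per transcript, whose tool is not given in the sources used here, nor is the annotation release. Every deposited column was mapped to a library through the sample descriptions.

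Counts were tested with edgeR 4.0.16 in R 4.3.3: filterByExpr (minimum count 10, total 15), TMM factors, the two-sided quasi-likelihood test and Benjamini-Hochberg adjustment over all genes tested, with SE taken as the fold change over the root of F. Estimated counts were rounded and tested likewise. FPKM served for levels and alternatives. Scripts were tested on simulated data. Alternatives were DESeq2 1.42.0, limma 3.58.1, other filters and scalings, a replicate block, a GC offset (loess span 0.3), summed transcripts and leaving out each library. The genes matched GENCODE vM21 by Ensembl ID, start and end, which supplied GC content and overlaps. Promoters came from RefSeq.

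Every tested channel gene could be named. Library values were given for genes at an unadjusted p under 0.05 and for the leading gene of each role by FPKM, up to 4 partners by smallest p, and up to 8 transcripts by smallest p with a mean of at least 100 counts. Values of other genes and transcripts were added after they were seen. The channel genes, lists and rules were chosen with earlier results of these data known. Of the 40 genes the symbols select, 2 are not reported here.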

Additional observations from a re-analysis of the deposited data

How the results depend on the processing

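Of the 32 tested channel genes, 9 kept their direction in every alternative that gave a value: Cacng8, Cacng7, Cacng6, Cacnb1, Scn3a, Scn3b, Cacna2d1, Scn4b and Scn2b. With every library kept, 0 channel genes had an adjusted p under 0.05 in the main fit. DESeq2 gave 1 (beside 0.743% of all genes) and edgeR with no count filter gave 1 (beside 1.33%). Some counts of genes and transcripts called also changed on leaving out a library. Apart from a range for lower transcripts, those counts are not printed, since a group then held a lone library. Higher genes at an unadjusted p under 0.05 numbered 1 (beside 4.33% of all genes), and 2 with the GC offset (beside 3.42%). They numbered 2 with DESeq2, 3 with no count filter, 0 on log2(FPKM + 0.1) and 0 at a mean FPKM of at least 1. Lower genes numbered 2 (beside 5.63%), and 1 with the GC offset (beside 3.84%) and 1 with summed transcripts. Where no share is given, that of all genes was not counted. The median of -0.063 ranged from -0.12 to 0.049 leaving out a library, the latter without control replicate 1. Cacna1f, not tested in the main fit, counts in these medians except without surgery replicate 2. In the fits leaving out a library, the lone library was assumed to vary like the other group. Transcripts at an adjusted p under 0.05 numbered 0, and 5 with DESeq2. At an unadjusted p under 0.05 in the main fit, 2.69% of all transcripts lay higher and 3.3% lower. These shares were not counted in the other settings, so the transcript counts given for those settings have no background beside them. Higher transcripts numbered 7, and 3 with limma-voom and 4 on log2(FPKM + 1). Lower transcripts numbered 3, and 5 with DESeq2, 5 on log2(FPKM + 1), 6 on log2(FPKM + 0.1) and 4 to 13 leaving out a library.

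The replicate numbers are shared between groups with no statement of pairing, and the deviations of same-numbered libraries correlated at 0.13 over 17236 genes. With replicate number as a block, 3 channel genes were higher, 4 channel genes were lower and 3 transcripts were higher by unadjusted p. With the block and the GC offset, 2 genes lay higher and 1 lower. The shares of all genes and transcripts at an unadjusted p were not counted with the block, so these counts have no background beside them. By adjusted p the block called 0 channel genes and 0.226% of all genes, and with the GC offset 0 and 0.0349%.

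Direction turned for these genes; the cause was not tested. With the GC offset, and with the offset and block after it, the log2 fold changes were Scn2a -0.061 and -0.061, Scn7a -0.054 and -0.036, Cacnb3 0.22 and 0.23, Cacna1a 0.13 and 0.14, Cacnb2 -0.11 and -0.11, Cacng3 0.051 and 0.052, Cacnb4 -0.12 and -0.13, Cacna1i 0.016 and 0.0185, Cacna1g 0.029 and 0.028, and Scn1a -0.094 and -0.094. With summed transcripts they were Cacna1h 0.57, Scn2a -2.04, Cacnb3 0.014, Cacna2d3 0.032, Cacna1a 0.43, Cacna2d2 0.059, Cacna1c -0.28, Cacna1i 1.72, Scn8a 0.0030, Scn1a -0.57 and Cacna1e -0.32. Cacna1c was -0.00259, -0.00398 and -0.00259 on the FPKM scales. Leaving out a library, the ranges that crossed 0 were Cacng2 -0.049 to 0.11, Cacna2d4 -0.67 to 0.13, Scn2a -0.020 to 0.14, Cacng4 -0.031 to 0.080, Scn7a -0.21 to 0.51, Cacna1b -0.22 to 0.049, Cacnb3 -0.17 to 0.067, Cacna2d3 -0.16 to 0.0064, Scn9a -0.19 to 0.57, Cacna1a -0.19 to 0.062, Cacnb2 -0.022 to 0.20, Cacng3 -0.11 to 0.017, Cacnb4 -0.16 to 0.24, Cacna1c -0.19 to 0.21, Cacna1g -0.34 to 0.012, Scn8a -0.18 to 0.053, Scn1a -0.050 to 0.10, Cacna1d -0.19 to 0.081, Cacng5 -0.32 to 0.15 and the transcript Scn8a-205 -0.20 to 0.52.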
